A study of Mus musculus with 9 samples.

Results

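Interferon-inducible genes were examined in mouse embryonic stem cells with and without Sirt6, the gene of a nuclear deacylase that acts on histones. The members were the 91 of 23366 rows of the count table whose symbols match a fixed pattern of interferon pathway names, from the receptors to the antiviral effectors. The group was picked from the difference between the same knockout and wild-type libraries that are described here, although the pattern itself reads symbols only. Every difference between the groups among these genes is therefore given as a description, and no test of it is used as support.

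All libraries came from cells of one strain, 129 SvJae F1, taken at passage 21 and cultured with serum and leukaemia inhibitory factor (LIF). Wild-type cells (3 libraries) were compared with Sirt6-KO cells (3 libraries). Another group of 3 libraries, from wild-type cells without glucose, is not analysed here. The labels name no interferon or other agent in either group, and they do not say how the Sirt6 mutation was made, whether the knockout is 1 clone, or whether replicates were separate cultures. Any p-value below therefore measures only the spread between these libraries, which may be technical.

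Interferons are secreted proteins that bind paired receptor chains at the cell surface. The bound receptors use JAK kinases to activate STAT proteins. Complexes that hold STAT2 and IRF9 bind interferon-stimulated response elements (ISREs), STAT dimers bind gamma-activated sites (GAS), and the genes so switched on block viral replication, tag or degrade viral products and feed back on the pathway. Cytoplasmic and endosomal sensors of foreign nucleic acid act upstream through IRF3 and IRF7 to switch on the interferon genes. Embryonic stem cells are known to make little interferon and to respond weakly to it.

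The ISRE core was searched as GAAANNGAAA, with its reverse complement TTTCNNTTTC, and the GAS core as TTCNNNGAA, which reads the same on both strands. The windows were the 32851 promoter windows in RefSeq (build GRCm38.p6), each of 300 bases, from 250 bases before a start site to 50 after it. An ISRE core was present in 3.44% of all windows and a GAS core in 8.30%. Of the 91 members, 66 matched a gene with a window. The stretches below show ISRE cores of guanylate-binding protein genes that were near silent in wild type and higher in the knockout (the table's Gbp1 is Gbp2b in RefSeq). They are written 5′ to 3′ on the strand of the gene, with the core in capitals and 15 bases on each side. A single core is marked in each stretch, and the Gbp3 stretch holds another that overlaps it.
Gbp2, chr3:142620589-142620628, plus strand: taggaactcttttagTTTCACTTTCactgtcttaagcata
Gbp1, chr3:142594695-142594734, plus strand: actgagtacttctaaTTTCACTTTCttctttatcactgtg
Gbp3, chr3:142559984-142560023, plus strand: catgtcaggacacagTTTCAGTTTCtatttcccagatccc
Gbp7, chr3:142530268-142530307, plus strand: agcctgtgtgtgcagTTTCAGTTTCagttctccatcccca

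The next stretches, in the same format, come from genes whose windows also hold an ISRE core but whose transcripts were not called higher in the knockout. Isg15, Ifit1 and Ifit3 are textbook targets of type I interferon. Gbp5 lies beside Gbp7 and had 3 wild-type counts and 5 knockout counts. The Isg15 stretch holds further cores that overlap the marked core.
Isg15, chr4:156200866-156200905, minus strand: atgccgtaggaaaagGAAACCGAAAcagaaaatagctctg
Ifit1, chr19:34640770-34640809, plus strand: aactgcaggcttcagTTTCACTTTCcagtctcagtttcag
Ifit3, chr19:34583358-34583397, plus strand: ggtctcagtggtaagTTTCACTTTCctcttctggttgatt
Gbp5, chr3:142496754-142496793, plus strand: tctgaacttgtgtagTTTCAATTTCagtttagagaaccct

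Irf1 and Irf8 encode transcription factors that are themselves induced by interferon gamma, and their windows hold a GAS core and no ISRE core. The stretches are shown because both genes had higher values in the knockout.
Irf1, chr11:53769909-53769947, plus strand: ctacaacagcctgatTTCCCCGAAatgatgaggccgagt
Irf8, chr8:120736172-120736210, plus strand: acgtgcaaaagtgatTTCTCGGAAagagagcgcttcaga

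Counted per gene, with any window of the gene, an ISRE core was found for 3.99% of 27025 genes and for 28 of the 66 members (42.4%). It was found for 8 of 8 GTPase genes with a window and for 0 of 5 receptor genes. The other GTPase members had no window, among them Gbp8 and Gbp9, which were called higher. Windows of Irgm2 and Stat2, both counted as having the core, did not match the strand of the transcript. Among members called higher in the knockout the core was found for 11 of 25, among those called lower for 2 of 9, among tested members with no call for 9 of 16, and among members too low to test for 6 of 16. The GAS core was found for 9.55% of all genes and for 18 of the 66 members (27.3%). Among members called higher it was found for 9 of 25, and among those called lower for 2 of 9. With no call it was found for 2 of 16, and among members too low to test for 5 of 16. Windows of 9 members held both cores, which can overlap. A match describes the letters in the window and says nothing of binding.

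**Figure D1:**
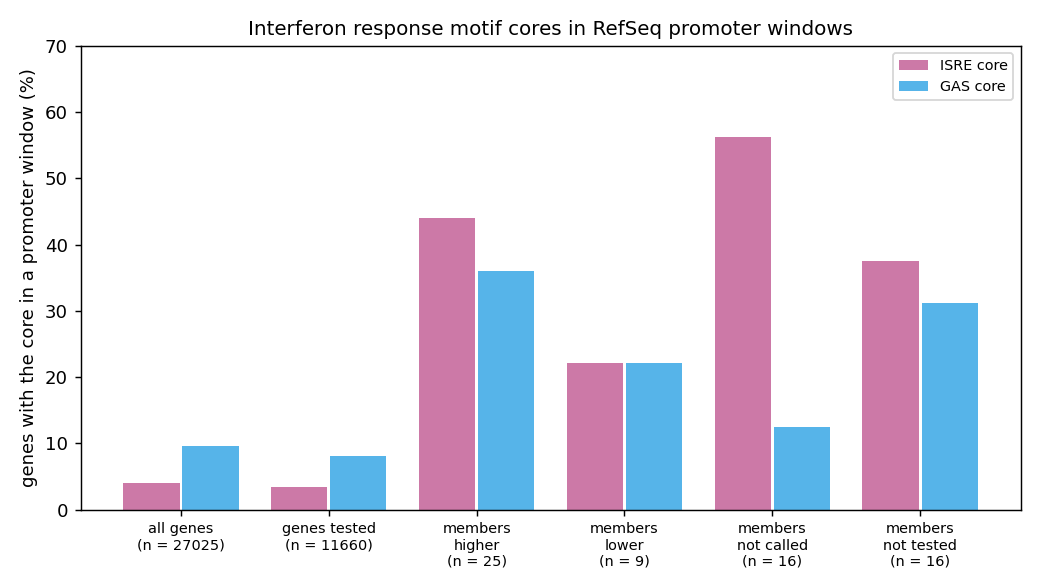
Share of genes (%, vertical axis) with an ISRE core or a GAS core in any RefSeq promoter window, for all genes, genes tested and members by their call in the knockout. Members with no call show the ISRE core in 9 of 16 genes and members called higher in 11 of 25, against 3.99% of all genes.

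Library totals ran from 20107037 to 29267115 counts. Sirt6 counts were 348, 341 and 342 without the mutation and 12, 6 and 6 with it, which is the direction of the labels. Stem cell markers were abundant in both groups, with Pou5f1 at 1651 and 1199 CPM (counts scaled to library size). The lines also differ in transcripts of the sex chromosomes: Xist was at 38.2 CPM in wild type and 4.06 in the knockout, and Ddx3y at 7.74 and 91.5. This difference between the lines cannot be told apart from the genotype.

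Of the 91 members, 63 passed the filter on low counts and were tested, 28 did not, and 6 of these had no count in any library (Gbp10, Ifi202b, Ifi204, Ifi205, Ifi27l2b and Ifi44l). A gene was called where edgeR's quasi-likelihood test over 14988 genes gave an adjusted p under 0.05. In the knockout 30 members were called higher and 12 lower, and 21 had no call. The shares were 47.6% and 19.0% of the tested members, beside 27.9% of all tested genes called higher and 27.8% called lower. The groups did not overlap for 48 members (76.2%), beside 63.2% of all genes. The median log2 fold change of the tested members was 0.43, against 0.01 for all genes. Both the calls and the medians varied with the wild-type level. Under 1 CPM in wild type, 12 of 22 members and 1097 of 2072 tested genes were called higher, with medians of 1.11 and 0.98. From 1 to 10 CPM these were 11 of 20 and 1334 of 3981 (0.49 and 0.07). At 10 CPM or more they were 7 of 21 and 1751 of 8935 (-0.18 and -0.06). The filter also shapes the counts of calls. Through the knockout libraries alone 13 members passed it, 10 of them called higher (76.9%, beside 83.2% of all genes that passed this way). Through the wild-type libraries alone 4 passed, 1 of them called lower, beside 66.3% of all genes that passed this way. Among the 45 members that passed in both groups, 20 were called higher (44.4%, beside 25.3% of all genes that passed in both) and 11 lower (24.4%, beside 28.8%). With total counts as the scale, the median of all genes shifts by 0.13 and 62.3% of all calls are higher, against 50.1%. For the members 78.0% of calls are then higher, against 71.4%.

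**Figure D2:**
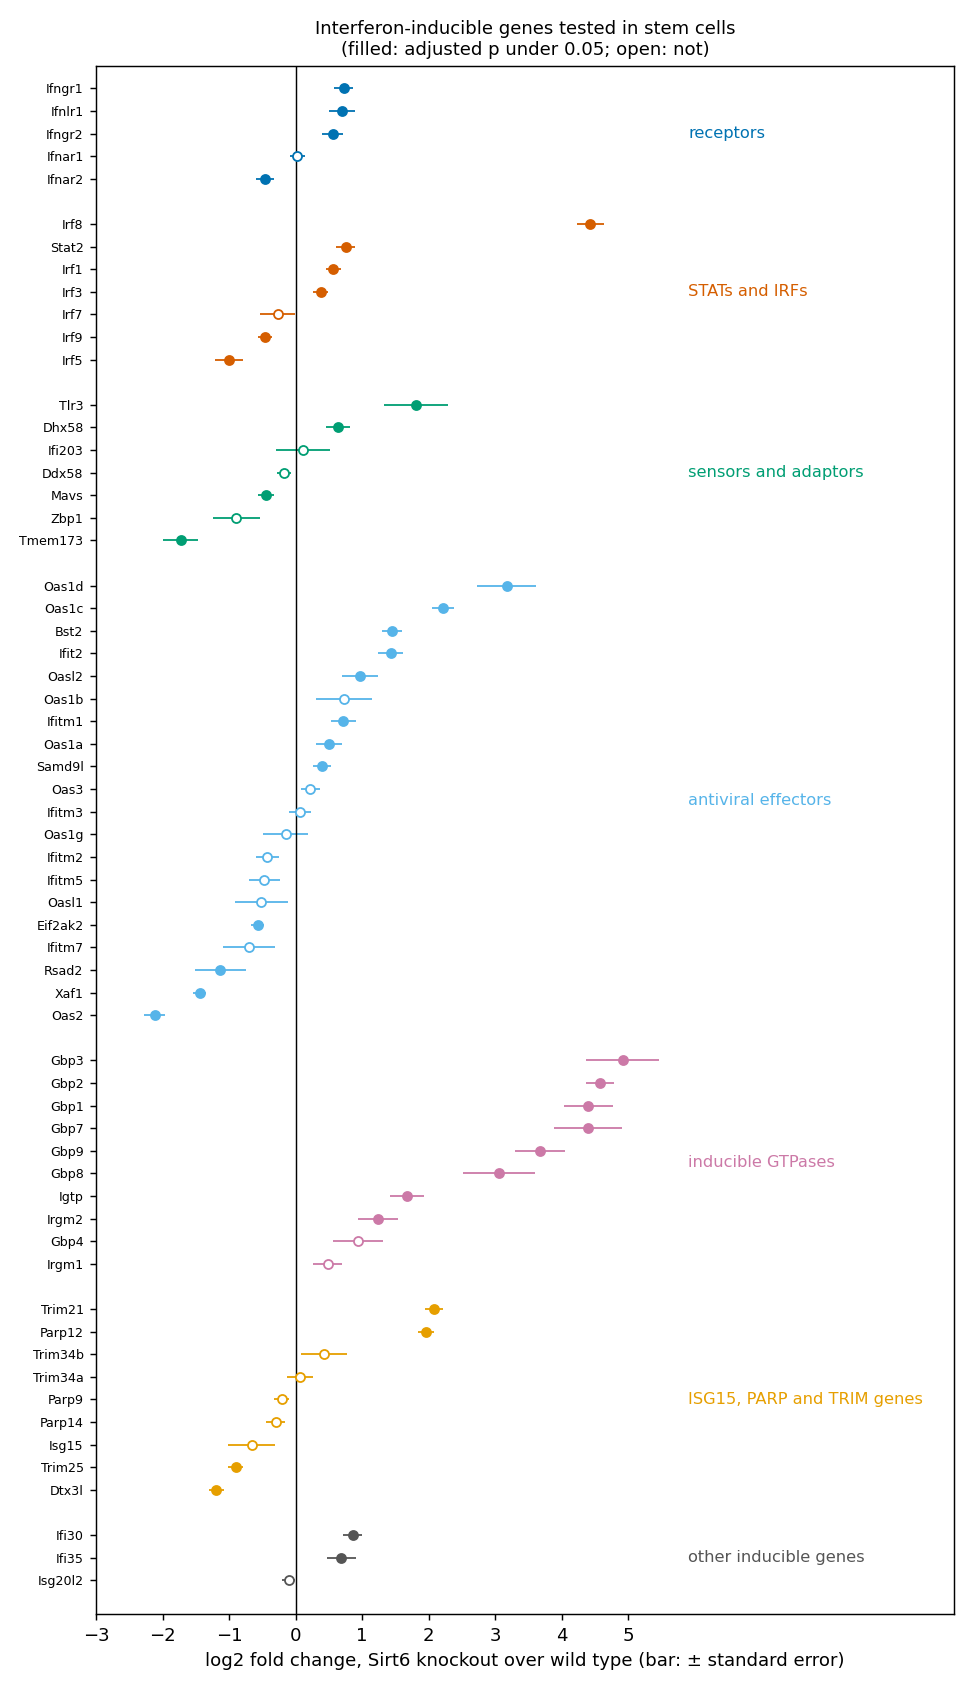
Log2 fold change of knockout over wild type (horizontal axis, bar ± standard error, 3 libraries per group) for 61 of the 63 tested members, grouped by role. Filled points have an adjusted p under 0.05. Gbp3, Gbp2, Irf8, Gbp1, Gbp7 and Gbp9 lie furthest right, and every role but the GTPases has points on both sides of 0. All the genes named, and most of the tested GTPases, passed the filter through the knockout libraries alone. Their place on the right therefore does not stand as support.

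At the top of the pathway, transcripts of the interferon gamma receptor chains were higher in the knockout and those of the interferon alpha and beta receptor were not. Ifngr1, the ligand-binding chain for interferon gamma, stood at 6.19, 6.99 and 8.42 CPM in wild type and 10.8, 12.7 and 12.2 CPM in the knockout. The groups did not overlap, and the log2 difference was 0.72 ± 0.14 (± SE here and below). Its partner Ifngr2 was at 3.80, 4.77 and 5.22 CPM against 7.40, 6.06 and 6.76 CPM (0.56 ± 0.16). Ifnlr1, the receptor chain for interferon lambda, was at 4.03, 3.35 and 2.70 CPM against 6.64, 4.87 and 4.66 CPM (0.69 ± 0.19). All 3 of these genes were higher in every knockout library than in any wild-type library, but the call of Ifnlr1 was lost without wild-type replicate 3 (0.55, edgeR adjusted p = 0.0515). Ifnar1, which every type I interferon uses, stood at 68.6, 65.1 and 63.6 CPM in wild type and 74.6, 67.4 and 58.5 CPM in the knockout. The wild-type values lay inside the range of the knockout values, with a difference of 0.03 ± 0.11. Its partner Ifnar2 was lower, at 10.7, 11.9 and 11.7 CPM against 7.30, 9.54 and 8.11 CPM. That was a log2 difference of -0.46 ± 0.13, with no overlap, and it was not called with total counts as the scale (-0.34).

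The transcription factors moved in both directions, and Irf7 (-0.27 ± 0.27) was not called. Irf8, a factor best known from macrophages and dendritic cells, had 9, 7 and 7 wild-type counts and 215, 157 and 130 knockout counts. In CPM these were 0.335, 0.293 and 0.270 against 6.77, 6.43 and 6.51, a 21.6-fold difference (log2 4.43 ± 0.20). All 3 knockout libraries were close together, and no wild-type library had more than 9 counts. Irf8 passed the filter through the knockout libraries alone, so neither its call nor the size of its difference stands as support.

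Irf1, which activates many genes of the interferon gamma response, was at 24.8, 22.8 and 29.5 CPM in wild type and 39.5, 35.8 and 38.8 CPM in the knockout (0.56 ± 0.11). Every knockout library exceeded every wild-type library. Irf3, which switches on interferon genes after virus sensing, stood at 29.6, 31.8 and 36.0 CPM in wild type and 45.7, 37.8 and 42.6 CPM in the knockout (0.37 ± 0.11). Its gap between the groups was small beside the range within each, and its call was lost without wild-type replicate 1 (0.32, edgeR adjusted p = 0.0761) or replicate 2 (0.35, 0.0690).

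Stat2 and Irf9, partners in binding the ISRE, differed in opposite directions. Stat2 was higher in the knockout, at 22.6, 21.0 and 20.4 CPM against 44.8, 31.9 and 30.9 CPM (0.75 ± 0.14). Irf9 was lower, at 15.5, 16.0 and 16.7 CPM against 10.9, 11.9 and 12.4 CPM (-0.46 ± 0.11). Neither of these genes had overlapping groups. Irf5, which acts below Toll-like receptors, was at 4.44, 4.31 and 3.79 CPM in wild type and 2.77, 1.60 and 1.75 CPM in the knockout (means ± SD of 4.18 ± 0.344 and 2.04 ± 0.638, n = 3).

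**Figure D3:**
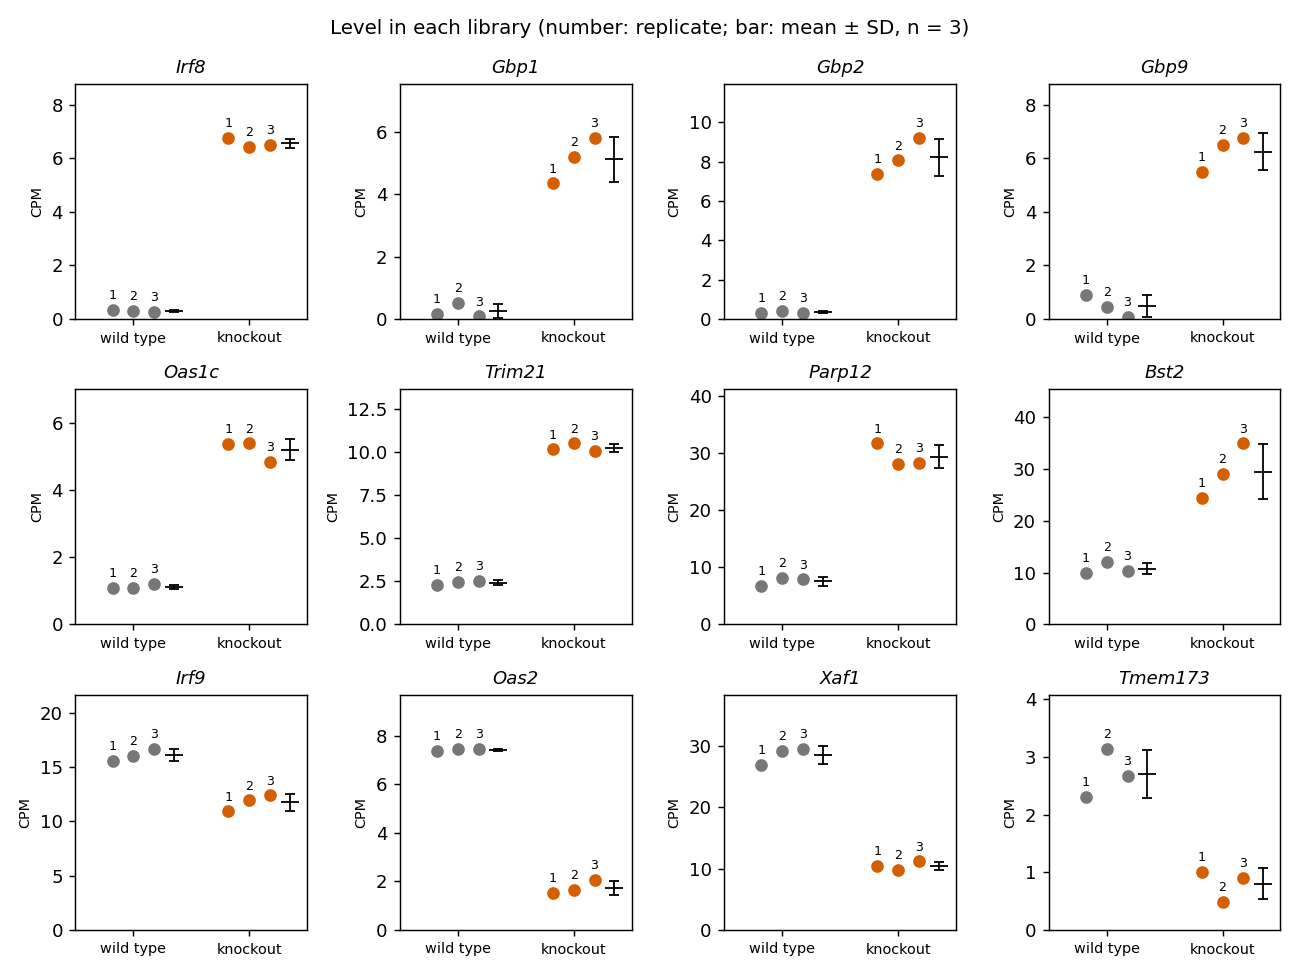
CPM (vertical axis, from 0) in each of the 3 wild-type and 3 knockout libraries for 12 members, with the replicate number above each point and a bar for the mean ± SD. Irf8, the Gbp genes, Oas1c, Trim21, Parp12 and Bst2 are higher in every knockout library, and Irf9, Oas2, Xaf1 and Tmem173 are lower in every one. Irf8 and the Gbp genes drawn passed the filter through the knockout libraries alone.

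Among the sensors and adaptors, 2 of 7 tested genes were called higher and 2 lower. These shares (28.6% each) were near the 27.9% and 27.8% of all tested genes. Tmem173, which encodes STING, the adaptor of the cytosolic DNA pathway, was at 2.31, 3.14 and 2.67 CPM in wild type and 1.01, 0.491 and 0.901 CPM in the knockout. That is 3.32-fold lower in the knockout (log2 -1.73 ± 0.26). Mavs, the mitochondrial adaptor of the RNA sensors, was at 32.7, 34.2 and 29.2 CPM against 27.1, 22.6 and 20.6 CPM (-0.45 ± 0.12). Both adaptors were lower in every knockout library, and Mavs had no call with total counts as the scale (-0.32).

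The RNA sensors themselves differed from one another. Dhx58 (LGP2) was at 2.01, 2.47 and 1.82 CPM in wild type and 3.34, 3.03 and 3.40 CPM in the knockout (0.64 ± 0.18). Ddx58 (RIG-I) gave -0.18 ± 0.11 with overlapping groups. Tlr3, the endosomal receptor for double-stranded RNA, was at 0.410, 0.293 and 0.270 CPM in wild type and 1.79, 1.02 and 0.451 CPM in the knockout (1.81 ± 0.48). Its knockout libraries spread widely, from 57 counts to 9, and without knockout replicate 1 the log2 difference was 1.22. Tlr3 passed the filter through the knockout libraries alone. Ifih1 (MDA5) had 1 wild-type count and 16 knockout counts, which is a ratio of 16.1 (exact 95% interval 2.50 to 675). Such an interval covers counting error only. Zbp1, a sensor of Z-form nucleic acid, gave -0.89 ± 0.36, and Ifi203 gave 0.11 ± 0.40, neither of them called.

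The antiviral effectors held some of the largest differences in both directions. Of the 20 tested genes 8 were called higher and 4 lower, beside 27.9% and 27.8% of all tested genes. The groups did not overlap for 13 of the 20, a share near the 63.2% of all tested genes. Oas1c, of the oligoadenylate synthetase family, was at 1.08, 1.09 and 1.20 CPM in wild type and 5.38, 5.41 and 4.86 CPM in the knockout (4.64-fold). Oas2, of the same family, was at 7.38, 7.45 and 7.46 CPM in wild type and 1.51, 1.64 and 2.05 CPM in the knockout (4.34-fold lower). Oas1c and Oas2, both on chromosome 5, thus differed in opposite directions. In the same family Oas1d (3.17 ± 0.45), Oasl2 (0.97 ± 0.27) and Oas1a (0.50 ± 0.19) were called higher. Oas1d passed the filter through the knockout libraries alone, and the call of Oas1a was lost under 8 of the 13 alternatives tried. Oas1b, Oas1g, Oas3 and Oasl1 had no call, with log2 differences from -0.52 to 0.73. The Oas1 genes are near copies of each other, and reads may be split between them.

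Bst2, which encodes tetherin and holds budding viruses at the cell surface, was at 9.95, 12.1 and 10.4 CPM in wild type and 24.5, 29.1 and 34.9 CPM in the knockout (2.73-fold). Ifit2, an RNA-binding effector, stood at 1.86, 2.72 and 2.78 CPM against 6.99, 7.12 and 5.56 CPM (2.69-fold). Neither gene's groups overlapped. The neighbouring classical targets stayed near zero, with 18 wild-type and 17 knockout counts for Ifit1 and 4 and 2 for Ifit3.

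Xaf1, a pro-apoptotic effector, was at 26.9, 29.1 and 29.5 CPM in wild type and 10.4, 9.83 and 11.2 CPM in the knockout (2.72-fold lower). Eif2ak2, the kinase PKR that stops translation on double-stranded RNA, was lower by a log2 difference of -0.57 ± 0.10. Rsad2 (viperin) was lower from a mean of only 0.553 CPM (-1.13 ± 0.39), and that call was lost under 6 of the 13 alternatives. It passed the filter through the wild-type libraries alone. These 3 and Oas2 were the effectors called lower.

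The membrane proteins of the IFITM family, which block virus entry, were the most abundant members in both groups. Per kilobase of exon, Ifitm2 stood at 189 ± 17.2 CPM in wild type and 140 ± 40.0 CPM in the knockout (SD, n = 3), Ifitm3 at 78.4 ± 8.59 and 82.0 ± 19.8, and Ifitm1 at 43.1 ± 2.34 and 71.0 ± 21.8. In the knockout, Ifitm3 and Ifitm1 did not differ beyond their spread. Only Ifitm1 of these was called (log2 0.72 ± 0.19), and its knockout libraries read 52.3, 81.1 and 99.7 CPM. Of the 7 tested members with the shortest transcripts, Bst2, Ifi30, Ifitm2 and Ifitm3 shared this order with Ifitm1, lowest in knockout replicate 1 and highest in knockout replicate 3, and Ifitm5 and Isg15 did not. Over all tested genes under 1 kb of exon the median deviation of these libraries from the group mean was -0.29 and 0.29 (log2), and over genes above 8 kb it was 0.16 and -0.18. With this length trend removed from each library, 30 members were called higher and 14 lower, and over all genes 4770 and 4363. The share of calls that were higher was then 68.2% for the members, against 71.4%, and 52.2% for all genes, against 50.1%.

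**Figure D4:**
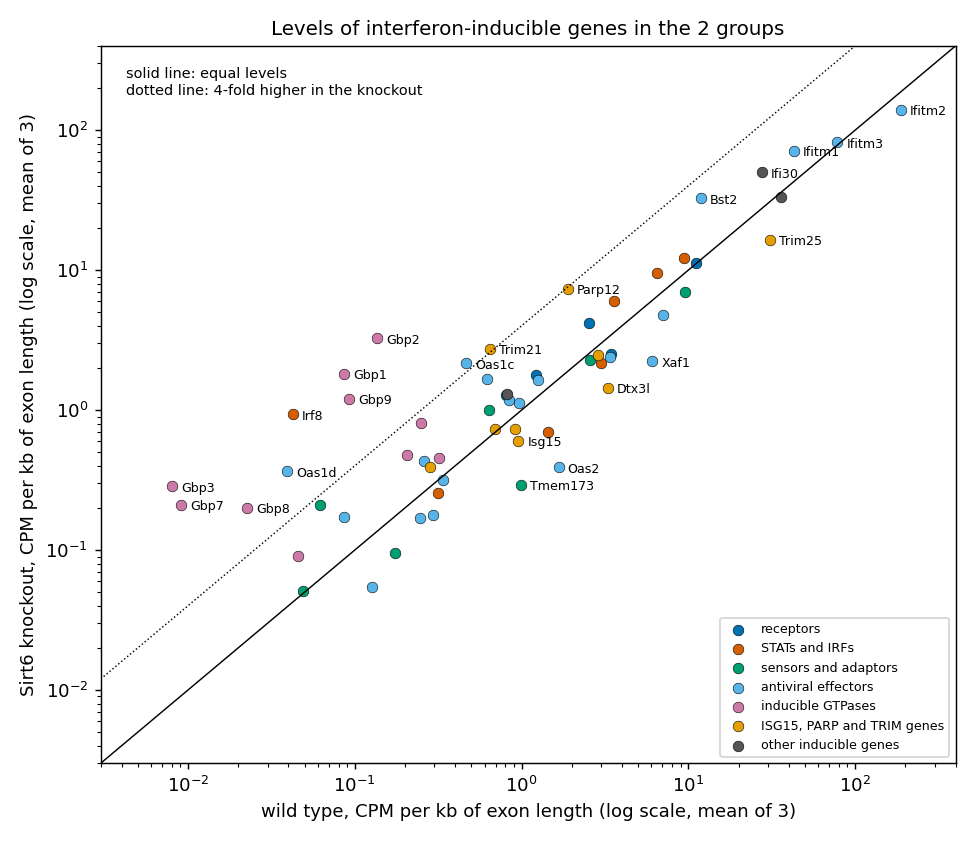
Mean CPM per kilobase of exon in the knockout (vertical axis, log scale) against wild type (horizontal axis, log scale) for 61 of the 63 tested members, coloured by role. The solid line marks equal levels and the dotted line a level 4-fold higher in the knockout. The points above the dotted line include members that passed the filter through the knockout libraries alone, and the abundant Ifitm genes lie near the solid line.

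The interferon-inducible GTPases, which attack the membranes around intracellular pathogens, held most of the largest differences. Of 15 members of this kind 10 were tested and 8 were called higher. The filter was passed through the knockout libraries alone by 8 of the 10 (7 Gbp genes and Igtp), which were tested only because of their knockout levels, so neither these counts nor the size of the differences stand as support. Only Irgm1 and Irgm2 passed in both groups, and Irgm2 was called higher. The summed level of the GTPase members was 3.59 to 5.40 CPM in the wild-type libraries and 27.1 to 31.9 CPM in the knockout libraries. The sums over all 91 members overlapped, at 970 to 1016 CPM against 974 to 1027 CPM.

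Gbp2 had 8, 10 and 8 counts in wild type and 234, 197 and 184 in the knockout. In CPM it was at 0.298, 0.418 and 0.309 against 7.37, 8.07 and 9.21, a 23.8-fold difference (log2 4.57 ± 0.21). Gbp1 was at 0.149, 0.502 and 0.0773 CPM against 4.35, 5.20 and 5.81 CPM (21.1-fold). Both genes were barely detected in wild type and clearly present in every knockout library. Without wild-type replicate 2 the log2 difference of Gbp1 went from 4.40 to 5.42.

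Gbp9 was at 0.895, 0.460 and 0.0773 CPM in wild type and 5.48, 6.51 and 6.76 CPM in the knockout (12.8-fold). Gbp7 was at 0.112, 0.0418 and 0 CPM against 1.32, 1.27 and 0.951 CPM (21.1-fold, from 4 wild-type counts). Without wild-type replicate 1 the log2 difference was 5.59 for Gbp7 and 4.55 for Gbp9, against 4.40 and 3.68. Gbp3 had 2 wild-type and 71 knockout counts in all, and its ratio of 35.7 had an exact 95% interval of 9.53 to 301. Gbp8 (3.05 ± 0.54, and 3.94 without wild-type replicate 1) was also called, and Gbp4 (0.94 ± 0.38) was not. Gbp genes share long near-identical stretches, so single values are uncertain where reads were split or dropped.

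The immunity-related GTPases of the Irg family differed less. Igtp was at 0.559, 0.377 and 0.579 CPM in wild type and 1.57, 1.64 and 1.70 CPM in the knockout (1.67 ± 0.25). Irgm2 differed by 1.24 ± 0.30, and Irgm1 by 0.48 ± 0.21 with no call. Iigp1 had 4 knockout counts and none in wild type.

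The Gbp genes lie in a cluster on chromosome 3 and another on chromosome 5, in the gene order of a GRCm38 annotation. On chromosome 3 the order was Gbp5, Gbp7, Gbp3, Gbp1 and Gbp2, and 4 of these 5 were called higher while Gbp5 was too low to test. The nearest tested genes were Pdlim5 (-0.04 ± 0.11) on one side and Ccbl2 (0.20 ± 0.12) on the other, neither of them called. The next tested genes beyond them were Bmpr1b, at 2.80 ± 0.41, and Gtf2b, at 0.49 ± 0.15. On chromosome 5 the nearest tested gene on one side, Abcg3 (4.05 ± 0.53), and the next one, Zfp951 (2.20 ± 0.10), were called higher. On the other side lay Lrrc8b (0.37, no call) and Lrrc8c (1.45, called higher). Beside the clusters, Bmpr1b, Gtf2b, Abcg3, Zfp951 and Lrrc8c were called higher, and Pdlim5, Ccbl2 and Lrrc8b had no call. Over all tested genes 27.9% were called higher. Abcg3 and Bmpr1b had wild-type means of only 0.0543 and 0.174 CPM, below the level of about 0.383 CPM that the filter needs. Whether the differences extend beyond the clusters was not tested.

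Among genes of ubiquitin, ISG15 or ADP-ribose attachment, 2 of 9 tested were called higher and 2 lower. These shares (22.2% each) were near the 27.9% and 27.8% of all tested genes. Trim21, a ubiquitin ligase that binds antibody-coated virus in the cytosol, was at 2.27, 2.47 and 2.51 CPM in wild type and 10.1, 10.5 and 10.1 CPM in the knockout (4.23-fold). Parp12, an ADP-ribosyltransferase, was at 6.67, 8.16 and 7.88 CPM against 31.7, 28.1 and 28.3 CPM (3.89-fold). Replicates of both genes stayed close to each other in each group.

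Trim25, the ligase that activates RIG-I and the most abundant of this set per kilobase of exon, was at 180, 184 and 171 CPM in wild type and 107, 93.5 and 85.0 CPM in the knockout (1.87-fold lower). Dtx3l, a ubiquitin ligase, was at 19.1, 19.5 and 18.1 CPM against 8.88, 8.15 and 7.76 CPM (2.28-fold lower). Its partner Parp9 gave -0.21 ± 0.11 and Parp14 -0.30 ± 0.14, neither called. All 3 genes had no overlap between the groups, but only Dtx3l was called.

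Isg15, the ubiquitin-like modifier, was low in all libraries, at 1.01, 0.586 and 0.579 CPM in wild type and 0.535, 0.328 and 0.501 CPM in the knockout (-0.66 ± 0.35, not called). Usp18, which removes ISG15 and damps the type I receptor, had 2 wild-type and 26 knockout counts (ratio 13.1, exact 95% interval 3.27 to 114). Trim34a and Trim34b had no call.

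The remaining members were few. Ifi30, a lysosomal thiol reductase used in antigen processing, was at 23.5, 29.9 and 27.6 CPM in wild type and 40.2, 50.7 and 55.9 CPM in the knockout (1.81-fold). Ifi35 was at 1.16, 1.76 and 1.31 CPM against 2.52, 1.97 and 2.25 CPM (0.69 ± 0.22), a call lost without wild-type replicate 1 (0.57, edgeR adjusted p = 0.0798) or replicate 3 (0.64, 0.0641). Ifi27l2a had 57 knockout counts and none in wild type. Setting wild type at 3 counts in all, it was at least 19.1-fold higher. Other members with at least 10 counts that were too low to test were Ifi27l1 (8 and 41 counts), Mx1 (6 and 16), Mx2 (0 and 10), Irf4 (6 and 15), Ifitm6 (24 and 10), Isg20 (8 and 4) and Oas1h (4 and 6), in wild type and knockout respectively.

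Pathway genes outside the pattern were read in the same fit, and 10 of the 29 called ones lost their call under at least 1 alternative: Il10rb under 10 of the 13, Cd274 under 9, Traf3 under 7, Irak4 under 6, Cmpk2 under 4, Nmi and Ftsjd2 under 3, Jak2 under 2 and Adar and Ptpn6 under 1. Of the kinases and shared receptor chains, Jak2 rose by 0.40, Tyk2 fell by 0.57 and Il10rb fell by 0.55 on the log2 scale, and Jak1 (-0.06 ± 0.12) was not called. Of 5 feedback genes 3 rose (60.0%, beside 27.9% of all tested genes) and none fell (beside 27.8%). Socs1, a feedback inhibitor of JAK kinases, rose from 1.49 ± 0.0519 to 3.69 ± 0.321 CPM (SD, n = 3; edgeR adjusted p = 7.82e-05), and Pias1 and Ptpn6 rose by 0.64 and 0.44 (log2).

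Of 18 partners of nucleic acid sensing, 1 rose (5.56%, beside 27.9% of all tested genes) and 6 fell (33.3%, beside 27.8%), so the share that fell was near that of all genes. Mb21d1, which encodes the DNA sensor cGAS that signals through STING, fell 4.01-fold from 8.72 ± 0.913 to 2.16 ± 0.117 CPM (SD, n = 3; edgeR adjusted p = 1.55e-06). Myd88, the adaptor of Toll-like receptors, fell by 1.19 on the log2 scale, and Rnaseh2b, which keeps RNA out of DNA, by 1.07. Adar, which edits double-stranded RNA, Irak4 and Traf3 fell by 0.48, 0.47 and 0.32. Trim32 rose by 1.01. The kinase Tbk1 (0.18 ± 0.09) and the adaptor Ticam1 of TLR3 (0.17 ± 0.18) were not called.

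Transcripts of the interferons themselves were close to absent. Of 18 interferon genes listed, 14 had no count in any library, among them Ifnb1, and none passed the filter. Their summed level was 0.116 to 0.410 CPM in wild type and 0.0501 to 0.287 CPM in the knockout.

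Of 29 further interferon-inducible genes listed, 21 were tested, 12 rose (57.1%) and 4 fell (19.0%), beside 27.9% and 27.8% of all tested genes. Of the 12, Psmb8, Tap2, Nlrc5, Herc6 and Trim30a passed the filter through the knockout libraries alone, because they were higher there, and 7 passed in both groups. Genes of peptide supply and loading for MHC class I were among the rises. Psmb8, a subunit of the immunoproteasome, rose from 0.0532 to 2.71 CPM (log2 5.55 ± 0.39), Psmb9 to 7.95 CPM (log2 2.65 ± 0.19) and the peptide transporter gene Tap2 from 0.367 to 3.28 CPM. Tap1 (1.67 ± 0.18), B2m (from 5.10 to 15.6 CPM) and Nlrc5 (2.35 ± 0.38), a transactivator of MHC class I genes, rose too. Psmb10, Psme1, Psme2, Tapbp and Ube2l6 had no call. Trim30a and Herc6 rose by 4.20 and 3.35, while Tor3a, Lgals9, Pml and Cd274 fell by 1.26, 0.90, 0.73 and 0.59 on the log2 scale.

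In bulk RNA, fewer cells of a type and less RNA per cell cannot be told apart, so markers of other cells were read in the same libraries. Of 9 haematopoietic and macrophage markers 2 were tested (1 rose, 1 fell), and their summed level was 16.2 to 18.6 CPM in wild type and 8.52 to 9.41 CPM in the knockout. Ptprc, Emr1, Lyz2 and Tyrobp, which define these cells, were each under 0.1 CPM in both groups. The others of this list went different ways: Cd68 fell from 14.7 to 6.11 CPM, Itgam rose from 1.41 to 2.14 CPM, and Sfpi1 (0.454 and 0.219 CPM), Csf1r (0.256 and 0.214 CPM) and Cd14 (0.246 and 0.0890 CPM) were too low to test. Of 10 fibroblast markers, which feeder cells would carry, 5 were tested, 4 rose and 1 fell, with sums of 9.50 to 10.4 CPM and 14.1 to 18.5 CPM. Of the 4 that rose, Col1a1 and Col1a2 passed the filter through the knockout libraries alone. Lum had no count, and Dcn, Postn and Twist2 were under 0.1 CPM, while Col1a1 rose from 0.565 to 2.11 CPM and Thy1 from 1.38 to 5.25 CPM. Pdgfrb rose from 3.52 to 6.91 CPM and Col1a2 from 0.0661 to 0.595 CPM. Pdgfra, which is also on the list of primitive endoderm markers, fell from 4.17 to 0.892 CPM. The part of such cells in the differences of the members was not tested.

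Markers of other embryonic states moved as well. All 6 tested primitive endoderm markers fell (sums of 27.9 to 28.7 CPM and 4.71 to 7.43 CPM), and 4 of 5 tested markers of 2-cell-like cells rose (2.09 to 2.55 CPM and 17.5 to 20.7 CPM). These 4 passed the filter through the knockout libraries alone, and 2 of the 6 through the wild-type libraries alone. Of all genes that passed through the knockout libraries alone, 83.2% were called higher. Of those that passed through the wild-type libraries alone, 66.3% were called lower. Of trophectoderm markers 3 of 4 tested rose, and of endothelial markers 3 of 4 rose and 1 fell. Over all tested genes 27.9% were called higher and 27.8% lower. Among the endothelial markers, Kdr rose and passed the filter through the knockout libraries alone. Cdh5 fell and passed it through the wild-type libraries alone. The part of these states in the members' values was not tested.

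The authors' deposited table lists 85 of the members. Of these, 34 are higher in the knockout and 11 lower at an adjusted p of 0.05 in the authors' deposited table. The share of all genes called there is not given here, so these counts have no background beside them. The call there was the same for 61 of the 63 members tested here, and none had opposite calls. Both comparisons are of the same groups of libraries, so their match is no separate evidence. Oas1a and Rsad2 were called here and not in the authors' deposited table. Ifi27l1, Ifi27l2a, Ifih1, Mx2 and Usp18, too low to test here, are called higher in the authors' deposited table.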

How the data were processed

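RNA from 6 libraries (3 wild-type, 3 Sirt6 knockout) was read from the authors' deposited table of counts, which holds whole numbers per gene symbol and no normalization. Tools named in the submitters' processing notes are TopHat2 (2.0.10), HTSeq (0.6.1) and DESeq2, and the build there is mm9. The sources used here give no annotation or strand setting. The authors' own comparison of the groups was also deposited. Per the file headers it has a base mean signal, log2 fold changes with standard errors, a score (the Wald statistic) and p-values, and it is quoted only by name.

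All genes were fitted together on the counts (edgeR 4.0.16, R 4.3.3, quasi-likelihood, a mean per group, trimmed mean of M values scaling, two-sided tests). The filter filterByExpr, at its defaults, needs about 0.383 CPM in 3 libraries. Benjamini-Hochberg adjustment ran over 14988 genes. The standard error of a log2 fold change is its size over the square root of F. The common biological coefficient of variation was 0.115. The test was first tried on simulated counts.

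Members, gene lists and roles were chosen with earlier results of these data known. Given library by library are up to 4 called members per role, by size of difference, with 1 CPM or more in the higher group and groups that do not overlap, and also Irf1, Irf3, Irf9, Ifnar1, Ifngr1, Mavs and Isg15. Values of 2 members that this rule covers are not reported here, although the counts include them. Ifit2, Ifitm1, Igtp and the genes beside the Gbp clusters were added after their values were seen.

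Exon lengths, known for 98.9% of tested genes, are from GENCODE M21 (GRCm38). Promoter sequences are from RefSeq (GRCm38.p6), not the authors' build, so coordinates are given for printed stretches only. Replicates differed by more than sampling noise in every pair (lowest chi-square per degree of freedom 3.73). Alternatives were DESeq2 1.42.0 as the test, DESeq2 size factors or total counts as the scale, no filter, a mean of at least 1 CPM, the replicate number as a block, and each library left out. One more, removal of each library's trend on exon length, was added after the data were seen.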

Additional observations from a re-analysis of the deposited data

How the results depend on the processing

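Under the 13 alternatives, 24 to 34 members were called higher and 9 to 15 lower, against 30 and 12. Over all genes 3580 to 5114 were called higher and 3101 to 4915 lower, against 4182 and 4163. Of the 42 called members, 34 kept their call under each alternative that tested them (25 higher, 9 lower). The 8 that lost it under at least 1 were Ifi35, Ifnar2, Ifnlr1, Irf3, Mavs, Oas1a, Rsad2 and Samd9l. Samd9l lost it without wild-type replicate 2 (0.29), wild-type replicate 3 (0.42) or knockout replicate 2 (0.37). Of the uncalled members, 9 were called under at least 1 (Gbp4, Ifitm2, Ifitm3, Ifitm5, Ifitm7, Irgm1, Oas1b, Parp14 and Zbp1), with 5 of them called without knockout replicate 1. The cause was not tested. With the replicate number as a block, 32 members were called higher and 15 lower, and over all genes 4670 and 4682. Libraries of the same number correlated at 0.21, -0.03 and 0.20 across genes in their deviations from the group means. Those of different numbers correlated at -0.22 to 0.03. The labels do not say that the numbers pair libraries, and the main fit did not take them as pairing. The sign turned for 6 members, none of them called. These were Isg20l2 with total counts (0.0237) and 5 with 1 library left out, whose log2 differences then ranged from -0.0944 to 0.2994 for Ifi203, -0.1229 to 0.2469 for Ifitm3, -0.0527 to 0.0883 for Ifnar1, -0.5131 to 0.094 for Oas1g and -0.0447 to 0.1518 for Trim34a. The filter left 28 members untested, of which 6 had no count in any library, and 85 were tested without it.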
